A study of Homo sapiens with 4 samples.

Results

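Definitive endoderm regulators were followed in 4 RNA-seq libraries made from the human embryonic stem cell line HUES8, through 9 genes of the 59050 listed in the deposited count table. The 9 genes were SOX17, GATA4, GATA6, CER1, FOXA1, FOXA2, CXCR4, HHEX and HNF4A, matched by symbol, and all were kept whatever their counts. The tested libraries, replicates 1 and 2, carry the genotype label CPT2 KO, and the other 2 carry the label WT. All 4 came from cells labelled embryonic stem cell and grown on Matrigel-coated plates in mTeSR1, with the treatment label WT throughout, and total RNA was extracted. Whether the cells labelled CPT2 KO came from 1 clone, and whether replicates were separate cultures, is not given in the sources used here. The p-values below therefore rest on library-to-library spread that may be technical.

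Definitive endoderm is the germ layer that forms the lining of the gut and airways, the liver and the pancreas. It arises from cells passing through the primitive streak under high Nodal or Activin signalling, which acts through SMAD2 and SMAD3 with partners such as FOXH1 and EOMES. SOX17, GATA4, GATA6, FOXA1, FOXA2, HHEX and HNF4A encode transcription factors of this lineage, CXCR4 a chemokine receptor used to sort endoderm cells, and CER1 (Cerberus) a secreted antagonist of Nodal and BMP ligands that anterior endoderm makes. CPT2 encodes a mitochondrial enzyme of fatty acid oxidation.

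Library totals were 20219396 and 16887789 counts for replicates 1 and 2 labelled CPT2 KO, against 18356754 and 20460031 for those labelled WT. At this depth 1 count was worth 0.0485 to 0.0603 CPM. CPM are counts scaled to a common library total after TMM (trimmed mean of M values) normalisation. CPT2 itself had 233 and 170 counts in the libraries labelled CPT2 KO, against 52 and 72 in those labelled WT. Its transcript therefore ran against the labels (log2 fold change 1.78, SE 0.27, edgeR adjusted p = 0.0218, and 0.25 and 0.0648 without replicate 1 and without replicate 2 labelled CPT2 KO), and groups are named by their labels below. WT replicate 1 stood apart. Over genes, its chi-square divided by degrees of freedom was 52.2 and 60.4 against replicates 1 and 2 labelled CPT2 KO and 45 against WT replicate 2, while WT replicate 2 gave 13.7 and 14 against those labelled CPT2 KO.

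CER1 showed the widest gap between the labels among the 9 genes. It had 2509 and 185 counts in replicates 1 and 2 labelled CPT2 KO, against 3 and 0 counts in those labelled WT, or 124 and 11.1 CPM against 0.163 and 0 CPM. Both libraries labelled CPT2 KO lay far above both labelled WT, and they also lay far from each other. Replicate 1 labelled CPT2 KO stood 1617-fold above the WT pair (95% counting interval 553 to 7844) and replicate 2 stood 145-fold above it (48.9 to 710). These intervals, and all others on ratios, are exact conditional binomial intervals that cover counting error only. CER1 is a protein-coding gene on the minus strand of chromosome 9, at 14719724 to 14722717 on GRCh38, and no exon of another annotated gene overlaps it. Its nearest protein-coding neighbour by start, ZDHHC21, had 532 and 390 counts in the libraries labelled CPT2 KO, against 506 and 533 in those labelled WT (edgeR adjusted p = 0.895).

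Promoter windows of 3 genes are shown because CER1 and GATA6 were near or at 0 in the libraries labelled WT, while HHEX was present in all 4. The windows are from RefSeq on GRCh38.p14, run 5′ to 3′ on the gene's own strand and hold 250 bases before and 50 after the gene start. Capitals mark matches to 7 short motifs, searched on both strands. The letters searched were AATNNACA for FOXH1, AGATAA for GATA factors, CAGACA for SMAD proteins, TCACACC for T-box factors such as EOMES, ATTGTT for SOX factors, TGTTTAC for FOXA factors and TATAAA for the TATA box.
CER1, chr9:14722684-14722983, minus strand: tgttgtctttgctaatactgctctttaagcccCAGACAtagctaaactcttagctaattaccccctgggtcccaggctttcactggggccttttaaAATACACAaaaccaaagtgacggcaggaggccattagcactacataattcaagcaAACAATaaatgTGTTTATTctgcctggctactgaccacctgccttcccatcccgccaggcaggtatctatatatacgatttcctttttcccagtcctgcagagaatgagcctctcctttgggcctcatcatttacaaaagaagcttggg
GATA6, chr18:22169339-22169638, plus strand: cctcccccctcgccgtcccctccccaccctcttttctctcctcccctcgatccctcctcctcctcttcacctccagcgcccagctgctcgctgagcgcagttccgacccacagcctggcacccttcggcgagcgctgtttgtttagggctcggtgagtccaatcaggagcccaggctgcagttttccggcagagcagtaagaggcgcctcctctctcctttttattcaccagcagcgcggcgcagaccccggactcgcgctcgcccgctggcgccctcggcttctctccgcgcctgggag
HHEX, chr10:92689705-92690004, plus strand: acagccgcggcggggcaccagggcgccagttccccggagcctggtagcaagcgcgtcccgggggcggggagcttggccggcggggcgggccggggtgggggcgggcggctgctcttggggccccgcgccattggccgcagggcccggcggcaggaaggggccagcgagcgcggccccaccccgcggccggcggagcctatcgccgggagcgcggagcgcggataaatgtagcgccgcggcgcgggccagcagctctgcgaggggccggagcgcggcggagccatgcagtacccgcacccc

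The CER1 window held 2 matches to the FOXH1 letters, starting at -154 (AATACACA) and -88 (TGTTTATT, on the opposite strand) from the gene start. It also held 1 SMAD match at -218 and 1 SOX match at -99, on the opposite strand, and none of these matches overlaps another. Of 35116 windows in the RefSeq table, 11% held the FOXH1 letters, 1.33% held them at least 2 times, 16.9% held the SMAD letters and 10.1% the SOX letters. FOXH1 and SMAD letters stood together in 2.14% of windows. The counts of repeated and joint matches were chosen after the CER1 window was seen. The GATA6 and HHEX windows held no match to any of the 7 motifs, as did 54.2% of all windows. GC content, which sets how often such letters occur, was 45.3% for CER1, 66.7% for GATA6 and 80.3% for HHEX, against a median of 58.7% over all windows. Of the 7 motifs, GATA letters occurred in 10.3% of all windows, T-box letters in 3.45%, FOXA letters in 3.42% and the TATA box in 11.5%. Such letters are not particular to CER1 among the 9 genes. CXCR4, present in all 4 libraries, has 3 windows in the table, of which 1 held the FOXH1 letters at -146 and another at -38, both from that window's own start, and its first held overlapping matches to the TATA box at -32 and -30. HNF4A held a GATA match at -26 in 1 of its 2 windows, and FOXA1 held none. A match is a description of the sequence and says nothing of binding in these cells.

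SOX17, the SRY-related factor that specifies endoderm, had 46 and 7 counts in replicates 1 and 2 labelled CPT2 KO, against 0 and 0 counts in the libraries labelled WT. The corresponding levels were 2.28 and 0.422 CPM against 0 and 0 CPM. It was seen in both libraries labelled CPT2 KO and in neither labelled WT, where a count of 0 allows up to 0.163 and 0.146 CPM (3 counts in replicates 1 and 2). Set against that floor of 3 counts per WT library, it was at least 14.8-fold higher in replicate 1 and at least 2.75-fold higher in replicate 2 labelled CPT2 KO. SOX17 lies on chromosome 8 at 54457935 to 54460888 (plus strand, protein coding).

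GATA6, a zinc finger factor needed early in human endoderm and pancreas formation, had 74 and 7 counts in the libraries labelled CPT2 KO, against 0 and 0 in those labelled WT. That is 3.66 and 0.422 CPM against 0 and 0 CPM, at least 23.8-fold and at least 2.75-fold higher with the same floor per library. The gene lies on chromosome 18 at 22169443 to 22202528 (plus strand, protein coding). It shares 240 exon bases with the antisense gene GATA6-AS1 on the opposite strand, which had 62 and 5 counts in the libraries labelled CPT2 KO, against 0 and 0 in those labelled WT. A second antisense gene, AC091588.3, shares 321 exon bases and had 0 counts in every library. The use of strand in counting is not given, so reads of the shared bases cannot be assigned to either partner. GATA6 and GATA6-AS1 were 8.68-fold (counting interval 4.01 to 22.3) and 10.2-fold (4.14 to 32.5) higher in replicate 1 than in replicate 2 labelled CPT2 KO.

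GATA4, the related factor of endoderm and heart, had 113 and 30 counts in the libraries labelled CPT2 KO, against 5 and 4 in those labelled WT. The levels were 5.59 and 1.81 CPM against 0.271 and 0.194 CPM, so the groups did not overlap and WT was not at 0. Replicate 1 labelled CPT2 KO stood 24.3-fold above the WT pair (counting interval 12.3 to 54.4), and replicate 2 stood 7.84-fold above it (3.63 to 18.8). GATA4 lies on chromosome 8 at 11676959 to 11760002 (plus strand, protein coding), with no overlapping exon of another gene.

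FOXA2, a forkhead pioneer factor of endoderm and of the anterior streak, had 152 and 10 counts in the libraries labelled CPT2 KO, against 1 and 2 in those labelled WT. This is 7.52 and 0.603 CPM against 0.0542 and 0.0971 CPM, a ratio to the WT pair of 97.9 (counting interval 32.9 to 480) in replicate 1 and 7.84 (2.02 to 44.4) in replicate 2. Replicate 1 held nearly all of the FOXA2 reads. The gene lies on chromosome 20 at 22581005 to 22585455 (minus strand, protein coding) and shares 70 exon bases with AL121722.1, which was not analysed here. LINC00261, a noncoding RNA that starts 6813 bases downstream of the FOXA2 start on the same strand, had 27 and 9 counts in the libraries labelled CPT2 KO, against 0 and 0 in those labelled WT. It was at least 8.7-fold and at least 3.53-fold higher in replicates 1 and 2 with the floor per library.

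FOXA1, the paralogue of FOXA2, went the other way. It had 3 and 2 counts in the libraries labelled CPT2 KO, against 8 and 19 counts in those labelled WT, or 0.148 and 0.121 CPM against 0.434 and 0.922 CPM. The groups did not overlap, but all levels were below 1 CPM. The ratio to the WT pair was 0.215 (counting interval 0.0417 to 0.698) in replicate 1 and 0.174 (0.0201 to 0.694) in replicate 2, and the WT libraries themselves differed, at a ratio of 0.47 for replicate 1 over replicate 2 (0.178 to 1.12). FOXA1 was the 1 member with at least 10 counts in the WT pair that differed by 2-fold between these libraries, lower in replicate 1, where 5.61% of genes were lower and 6.51% higher by that much. FOXA1 lies on chromosome 14 at 37589984 to 37596059 (minus strand, protein coding) and shares 16 exon bases with TTC6 on the opposite strand.

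CXCR4, the receptor for CXCL12, had 59 and 32 counts in the libraries labelled CPT2 KO, against 28 and 29 in those labelled WT. The levels of 2.92 and 1.93 CPM against 1.52 and 1.41 CPM lay close together, with both libraries labelled CPT2 KO above both labelled WT. Its ratio to the WT pair was 2 (counting interval 1.37 to 2.93) in replicate 1 and 1.32 (0.829 to 2.07) in replicate 2. Its ligand CXCL12 was at 112 and 104 CPM in the libraries labelled CPT2 KO, against 116 and 114 CPM in those labelled WT (edgeR adjusted p = 0.852). CXCR4 lies on chromosome 2 at 136114349 to 136118165 (minus strand, protein coding).

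HHEX, a homeobox factor of anterior endoderm, liver and blood vessel precursors, was present at similar levels everywhere. It had 212 and 170 counts in the libraries labelled CPT2 KO, against 197 and 134 in those labelled WT, or 10.5 and 10.2 CPM against 10.7 and 6.5 CPM, and the groups overlapped. The spread was between the WT libraries, with a ratio of 1.64 for replicate 1 over replicate 2 (counting interval 1.31 to 2.06), while replicates 1 and 2 labelled CPT2 KO had a ratio of 1.02 (0.833 to 1.26). HHEX lies on chromosome 10 at 92689951 to 92695646 (plus strand, protein coding).

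HNF4A, a nuclear receptor of liver and gut that comes on later than the others, was hardly detected. It had 0 and 5 counts in replicates 1 and 2 labelled CPT2 KO, against 0 and 0 in those labelled WT. Its 5 counts were therefore in the library with less SOX17, GATA6, FOXA2 and CER1. It was at least 1.96-fold higher in replicate 2 than the floor per WT library, while replicate 1 gives no fold. HNF4A lies on chromosome 20 at 44355700 to 44434596 (plus strand, protein coding).

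**Figure D1:**
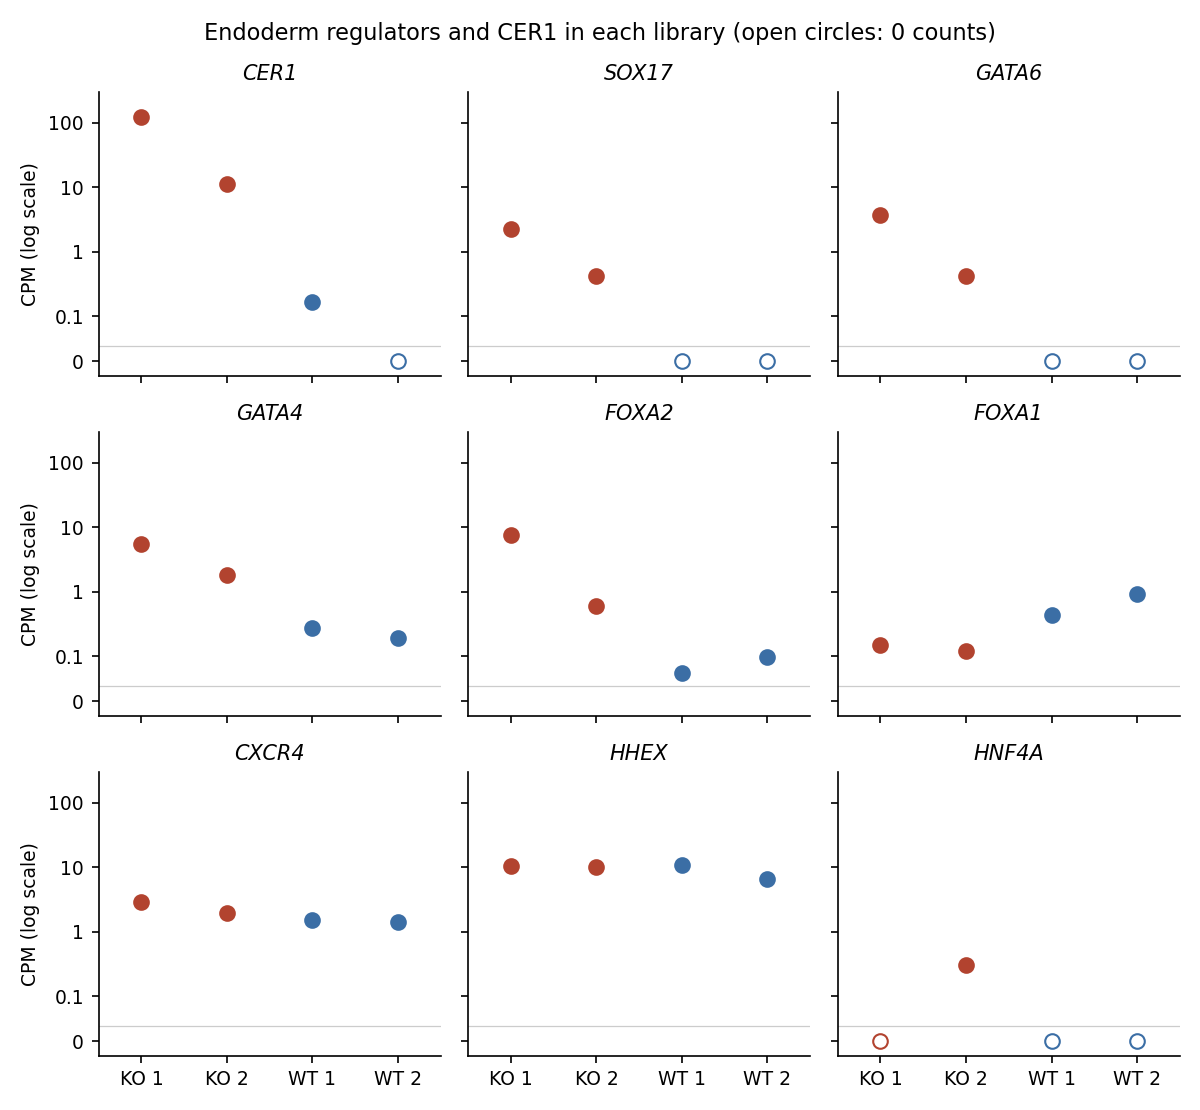
CPM (log scale, 0 counts as open circles) of the 9 genes in each library, replicates 1 and 2 labelled CPT2 KO in red and those labelled WT in blue. CER1, SOX17, GATA6, GATA4 and FOXA2 lie highest in replicate 1 labelled CPT2 KO (124 CPM for CER1), next in replicate 2 (11.1 CPM) and lowest in both WT libraries.

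Tested across all genes, 5 of the 9 passed the filter on low counts (GATA4, CER1, FOXA2, CXCR4 and HHEX) and 4 did not (SOX17, GATA6, FOXA1 and HNF4A). The edgeR quasi-likelihood test called 0 of the 5 higher and 0 lower, where 0.359% of 17564 tested genes were called higher and 0.0569% lower. At an unadjusted p under 0.05, edgeR gave 3 members (GATA4, CER1 and FOXA2), all higher, where 4.88% of tested genes were higher at that level. DESeq2 called 2 of the 5, GATA4 and CER1, higher (0.848% of tested genes were), and limma-voom called 0. A gene that enters the test only through counts in the libraries labelled CPT2 KO had to differ, so these counts give no support beyond the values.

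GATA4 had a log2 fold change of 4.01 (SE 0.76, edgeR adjusted p = 0.066), higher in 2 of 2 libraries. CER1 had one of 9.67 (SE 2.46, edgeR adjusted p = 0.436) and FOXA2 one of 5.67 (SE 1.65, edgeR adjusted p = 0.385). CXCR4 had 0.75 (SE 0.42, edgeR adjusted p = 0.621), and HHEX had 0.28 (SE 0.27, edgeR adjusted p = 0.776). The test weighs the gap between labels against the spread within them, and that spread was 79.9 CPM (SD, n = 2) about a mean of 67.7 CPM for CER1 in the libraries labelled CPT2 KO, against 0.115 CPM about a mean of 0.0813 CPM in those labelled WT. GATA4 was called in edgeR with gene-wise dispersions estimated first (adjusted p = 0.0304), where 0.37% of tested genes were called higher, and with no filter on low counts, where 0.323% were. CER1 was called without robust estimation (edgeR adjusted p = 0.0253), where 0.347% were. Leaving out WT replicate 1 called GATA4 (edgeR adjusted p = 0.0441), where 0.516% of tested genes were called higher, and leaving out WT replicate 2 called GATA4 (0.0122) and SOX17 (0.0424), where 2.66% were. In these 2 fits the remaining WT library is assumed to vary like the libraries labelled CPT2 KO. SOX17, at 0 counts in WT, and GATA4, at 5 and 4 counts there, entered only through the libraries where they were high. Their calls therefore give no support beyond the values.

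Each library labelled CPT2 KO was also set against the 2 WT libraries on its own. Replicate 1 gave 5 members called higher, with edgeR adjusted p of 0.0226 for SOX17, 0.00498 for GATA4, 0.00572 for GATA6, 1.12e-05 for CER1 and 0.00059 for FOXA2, where 0.448% of 18519 tested genes were called higher. All 5 had at most 5 counts in each WT library, and SOX17 and GATA6 had 0. Each therefore entered this fit only through replicate 1 itself and had to lie higher there, so these calls give no support beyond the values. Replicate 2 gave 1, CER1 (log2 fold change 7.06, SE 0.71, edgeR adjusted p = 0.00385), where 0.126% of 18319 were. GATA4 was at a log2 fold change of 2.93 in replicate 2 (SE 0.80, edgeR adjusted p = 0.436), and SOX17, GATA6 and FOXA2 did not pass the filter there. CER1 and GATA4, with at most 5 counts in each WT library, entered the fit of replicate 2 only through that library. In both fits the lone library is assumed to vary like the WT pair, so neither takes account of the gap between the libraries labelled CPT2 KO.

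By size alone, 5 of the 8 members with at least 10 counts were at least 2-fold higher in replicate 1 than in the WT pair (SOX17, GATA4, GATA6, CER1 and FOXA2), where 6.38% of genes were. In replicate 2 it was 3 of 6 (GATA4, CER1 and FOXA2), where 6.78% of genes were. FOXA1 was at least 2-fold lower in both, where 6.83% of genes were in replicate 1 and 9.04% in replicate 2. Over all 9 members the libraries labelled CPT2 KO lay above those labelled WT without overlap for 6 and below for 1, where 16.9% of genes with a count lay above and 16% below.

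**Figure D2:**
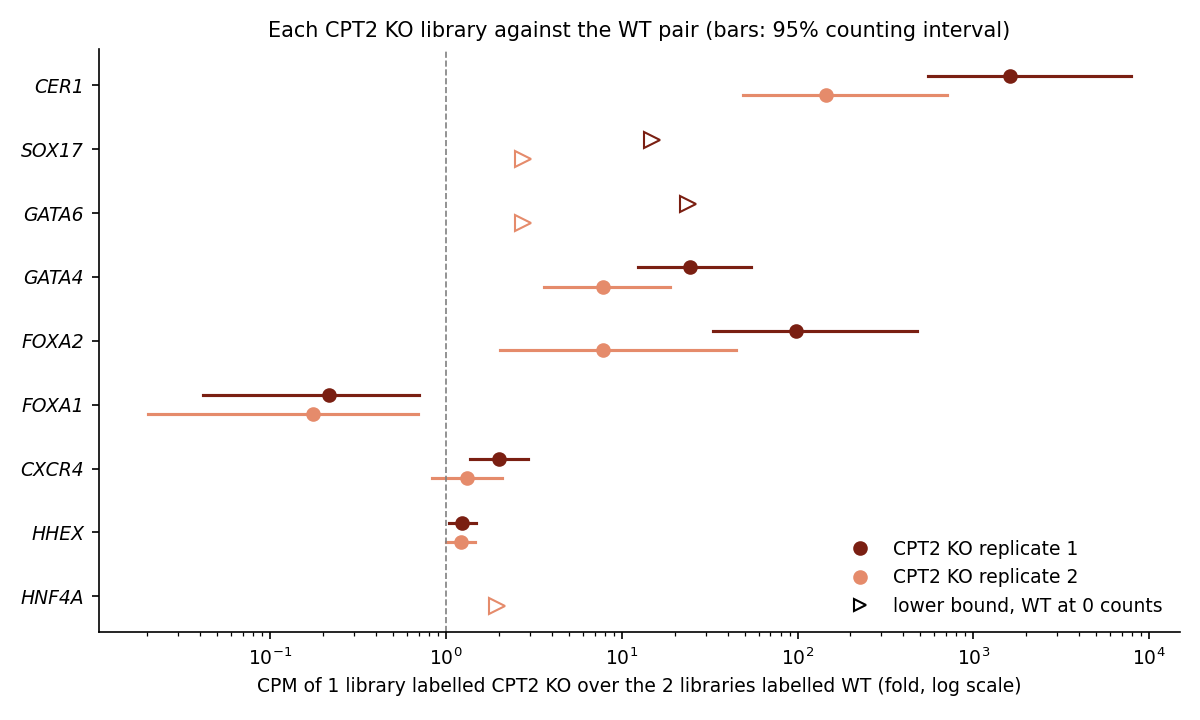
Fold (log scale) of each library labelled CPT2 KO over the pair labelled WT, with bars for the 95% counting interval and open triangles for lower bounds where WT had 0 counts. CER1 stands at 1617-fold in replicate 1 and 145-fold in replicate 2, FOXA1 below 1 in both, and HHEX at 1.24 and 1.21.

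The libraries that share the label CPT2 KO differed widely for the same genes. Replicate 1 stood above replicate 2 by 12.5-fold for FOXA2 (counting interval 6.61 to 26.6), 11.1-fold for CER1 (9.59 to 13), 8.68-fold for GATA6, 5.4-fold for SOX17 (2.42 to 14.2) and 3.09-fold for GATA4 (2.05 to 4.8). The interval of GATA4 lies below those of CER1 and FOXA2, so the gap was not the same for all members. CXCR4 was 1.51-fold higher (0.969 to 2.41), an interval that includes 1, as does that of HHEX. In all, 5 of 7 members with at least 10 counts in this pair were at least 2-fold higher in replicate 1, where 6.86% of genes were. Of these, 4 were at least 4-fold higher, where 2.17% of genes were, and 2, CER1 and FOXA2, were at least 10-fold higher, where 0.76% were. Over tested genes the ratio of replicate 1 to replicate 2 ran from 0.578 at the 5th to 1.92 at the 95th percentile. In bulk libraries, fewer cells of a type and less RNA per cell cannot be told apart.

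**Figure D3:**
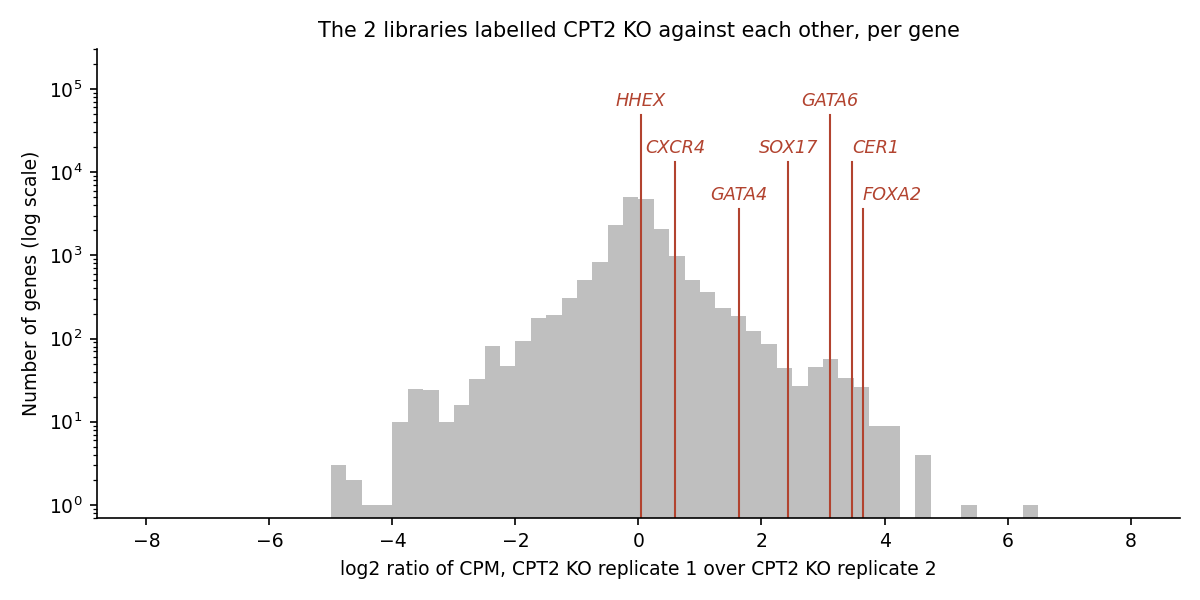
Histogram of the log2 ratio of CPM, replicate 1 over replicate 2 labelled CPT2 KO, over genes with at least 10 counts in the pair and a count in both (number of genes on a log scale). Red lines mark 7 members, with HHEX at the centre (1.02-fold) and FOXA2 at the right (12.5-fold).

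Per length, in TPM (transcripts scaled to a fixed total per library), CER1 was the most abundant of the 9 in replicate 1 labelled CPT2 KO, at a level of 349 TPM (counting interval 335 to 363), followed by HHEX at 14.2 (12.4 to 16.3) and FOXA2 at 9.87 (8.36 to 11.6). CXCR4 at 4.48, GATA4 at 4.3, SOX17 at 3.31 and GATA6 at 3.13 TPM came next, and the intervals of these 4 overlapped. FOXA1 stood at 0.115 TPM, and HNF4A had no count. CER1 was thus above NANOG, a pluripotency factor, which stood at 209 TPM in that library, and below POU5F1 at 2497 TPM. In replicate 2 labelled CPT2 KO the level of CER1 was 30.2 TPM (26 to 34.8), followed by HHEX at 13.3 and CXCR4 at 2.85, and the other 6 ranged from 0.0897 TPM for FOXA1 to 1.34 TPM for GATA4. The libraries labelled WT had another order, with HHEX first at 16.7 and 9.06 TPM and CXCR4 second at 2.7 and 2.22 TPM. No other member exceeded 0.734 TPM there, the value of FOXA1 in replicate 2.

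Genes closest in pattern were sought as the smallest Euclidean distance between mean-centred log2 CPM over the 4 libraries, among genes that passed the filter. For GATA4 they were FGF4, a fibroblast growth factor of pluripotent cells, at a distance of 0.206, then SLC5A9, a sugar transporter gene, C5orf63, FOXQ1, a forkhead gene, and LINC00261 at 0.391. FGF4 had 710 and 168 counts in the libraries labelled CPT2 KO, against 41 and 31 in those labelled WT, a ratio of 3.47 between the libraries labelled CPT2 KO (counting interval 2.93 to 4.13). For CER1 no gene came as near. The 5 closest were C9orf64, NPFFR2, EOMES, ZNF37A and PCDHGC3, at distances of 2.55 to 4.04. These genes were picked for a pattern that is high in the libraries labelled CPT2 KO and low in those labelled WT, as were those for GATA4. A test between the labels therefore adds no support for them. None is given, apart from EOMES, which is tested below as 1 of the listed endoderm genes. EOMES, the T-box factor of mesendoderm, had a ratio of 6.53 between replicates 1 and 2 labelled CPT2 KO (5.35 to 8.05), beside 11.1 for CER1. The other 4 lay further from CER1 in this ratio. C9orf64, a gene of queuosine salvage, had 1.44 (1.17 to 1.77) and NPFFR2 had 1.88 (1.36 to 2.62). PCDHGC3 had 1.1 (0.825 to 1.48) and ZNF37A, a zinc finger gene, had 0.876 (0.711 to 1.08). PCDHGC3 shares exons with the other genes of the protocadherin gamma cluster and ZNF37A has a near copy, so how their reads were assigned is uncertain.

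Of 23 other genes of endoderm and its streak precursors, 22 passed the filter and edgeR called 1 higher and 0 lower. The called gene was FZD5, a Wnt receptor, at 148 and 148 CPM in the libraries labelled CPT2 KO, against 73.1 and 55.2 CPM in those labelled WT (log2 fold change 1.21, edgeR adjusted p = 0.0097, and 0.109 without replicate 1 labelled CPT2 KO). The median log2 fold change over the 22 was 0.44, with 17 positive and 5 negative, beside 0.0017 over all tested genes, and 10 lay above WT without overlap and 3 below, where 21.1% and 19.8% of tested genes did.
EOMES, MIXL1 and GSC, transcription factors of the streak and its anterior part, had large gaps between the labels but were not called in edgeR. DESeq2 called all 3 higher (adjusted p of 0.00252 for EOMES, 4.77e-05 for MIXL1 and 0.0101 for GSC). GSC, at 5 and 0 counts in the libraries labelled WT, entered the tests only through those labelled CPT2 KO. Its calls, in DESeq2 and in the fits below, therefore give no support beyond the values. EOMES had 867 and 109 counts in the libraries labelled CPT2 KO, against 12 and 12 in those labelled WT (edgeR adjusted p = 0.569, and 1.12e-05 for replicate 1 and 0.0289 for replicate 2 when each was set against WT on its own). MIXL1 had 1348 and 360 against 38 and 55 (adjusted p = 0.344 in edgeR, and 1.12e-05 and 0.00501 for replicates 1 and 2 on their own), and GSC had 63 and 23 against 5 and 0 (adjusted p = 0.101 in edgeR, and 0.0418 and 0.554 for replicates 1 and 2 on their own, 0.015 without WT replicate 1 and 0.0292 without WT replicate 2). DKK1, a secreted Wnt antagonist, had 14 and 11 counts against 0 and 4 (edgeR adjusted p = 0.464).

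Between replicates 1 and 2 labelled CPT2 KO, 6 of these 23 genes were at least 2-fold higher in replicate 1 and 0 lower, where 6.86% and 5.44% of genes were. They were EOMES, MIXL1, GSC, LHX1, PRDM1 and FGF17, the last 3 chosen for naming after their values were seen. FGF17, a growth factor of the streak, had 478 and 15 counts in the libraries labelled CPT2 KO, against 21 and 11 in those labelled WT. LHX1, a homeobox factor of anterior mesendoderm, had 123 and 12 counts against 65 and 35, so replicate 2 labelled CPT2 KO was the lowest of the 4 libraries for it. PRDM1, a repressor of transcription, had 29 and 1 counts against 5 and 1.

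**Figure D4:**
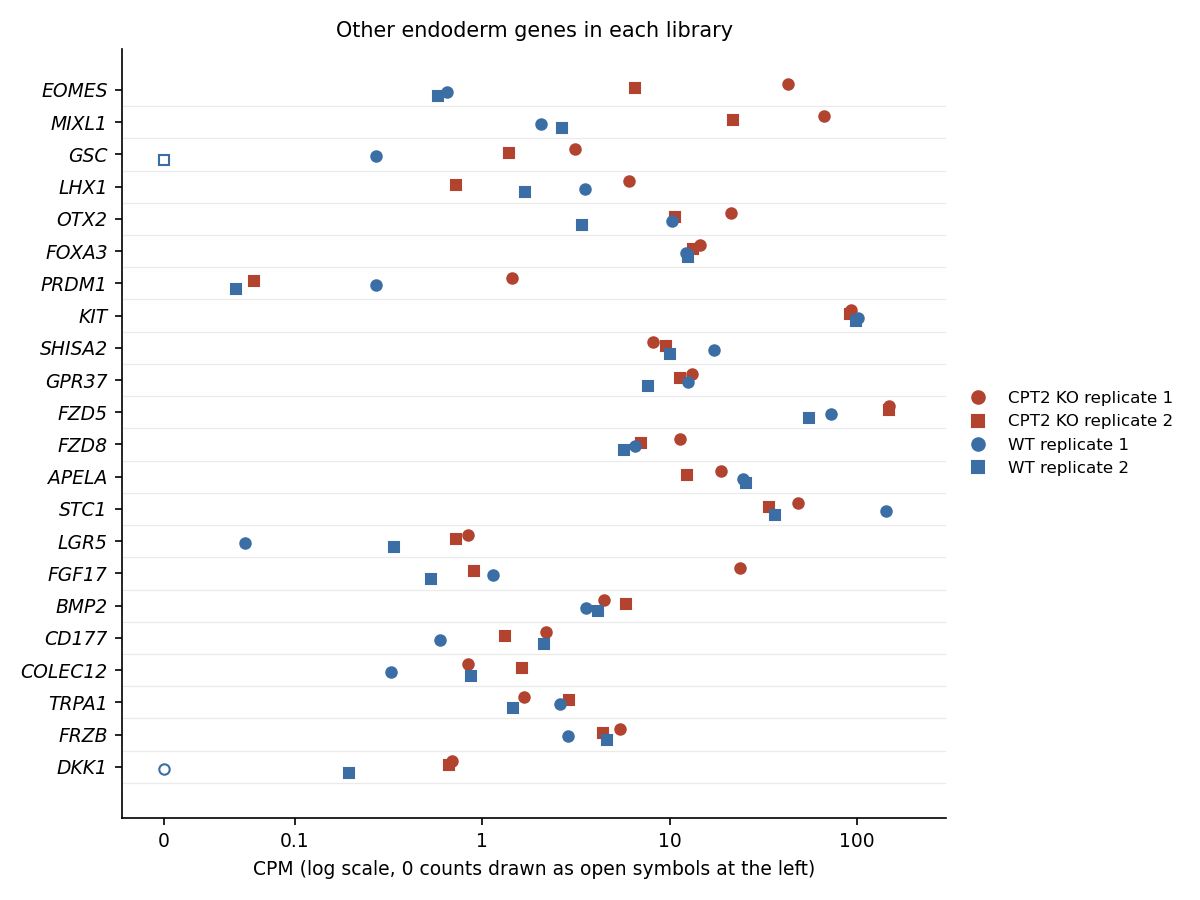
CPM (log scale, 0 counts as open symbols at the left) of 22 of the 23 other endoderm genes, circles for replicate 1 and squares for replicate 2, red for the label CPT2 KO and blue for WT. EOMES and MIXL1 lie highest in replicate 1 labelled CPT2 KO, FGF17 stands apart there (23.7 CPM), and KIT is alike in all 4 libraries.

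Of 18 family members and partners of the 9 genes, 12 passed the filter, edgeR called 0 higher and 0 lower, and the median log2 fold change was 0.28. SOX18, of the same SOX subfamily as SOX17, had 32 and 23 counts in the libraries labelled CPT2 KO, against 10 and 9 in those labelled WT (edgeR adjusted p = 0.397). GATA2, an endothelial and blood factor, had 39 and 49 against 19 and 13 (adjusted p = 0.346 in edgeR). NBL1, a BMP antagonist of the same family as CER1, had 281 and 223 against 112 and 134 (edgeR adjusted p = 0.0867). NBL1 was called with DESeq2 (adjusted p = 0.0154) and in edgeR with no filter on low counts (adjusted p = 0.0428), but not with limma-voom (adjusted p = 0.144). Over 14 alternatives its log2 fold change ran from 1.07 to 1.17. ACKR3, the second receptor of CXCL12, had 19 and 19 counts against 7 and 9 (edgeR adjusted p = 0.556). FOXA3, the third FOXA gene, stood at 14.6 and 13.3 CPM against 12.3 and 12.5 CPM (adjusted p = 0.827 in edgeR).

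Of 15 genes of later gut, liver and pancreas, 5 passed the filter, edgeR called 0, the median log2 fold change was -0.039, and TTR, PDX1 and NKX2-1 had no count in any library. PAX9, a pharyngeal pouch factor, was at 2.33 and 4.82 CPM in the libraries labelled CPT2 KO, against 1.79 and 1.8 CPM in those labelled WT (edgeR adjusted p = 0.552). SOX9 was at 24.4 and 18.7 against 38.8 and 31.5 CPM (edgeR adjusted p = 0.249, and 0.00752 without WT replicate 2).

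Markers of other cell types that use some of the 9 genes were read beside them. For primitive and visceral endoderm, which also express SOX17, GATA4 and GATA6, 6 of 11 markers passed and edgeR called 0, with a median of -0.22, TTR and APOA1 at 0 everywhere, and a summed level of 27.9 and 26.3 CPM in the libraries labelled CPT2 KO, against 22.4 and 29.3 CPM in those labelled WT. For mesoderm and heart, which use GATA4 and GATA6, 6 of 15 passed and edgeR called 0, with a median of 0.40, MSGN1 and HAND1 at 0 everywhere, and sums of 608 and 456 CPM against 422 and 392 CPM, most of it from KDR. For endothelium and blood, which use HHEX and CXCR4, 7 of 12 passed and edgeR called 0, with a median of 0.49, GATA1 at 0 everywhere, and sums of 16.6 and 23.4 against 17.7 and 20.1 CPM. For amnion and trophoblast, 4 of 12 passed and edgeR called 0, with a median of 0.032, HAND1, CGA and ELF5 at 0 everywhere, and sums of 64.9 and 63.9 against 76.2 and 63.1 CPM. The neuroectoderm list had 6 of 10 passing and 2 called lower by edgeR, SOX1 (adjusted p = 0.0733 and 0.0724 without replicate 1 and without replicate 2 labelled CPT2 KO) and SIX6 (0.358 and 0.226 in the same fits), with a median of -0.49 and sums of 104 and 120 against 158 and 150 CPM. Of all tested genes, edgeR called 0.0569% lower. SOX1 had 15 and 5 counts in the libraries labelled CPT2 KO, against 82 and 130 in those labelled WT, and SIX6 had 2 and 1 against 24 and 67. Both passed the filter only through the libraries labelled WT, so their calls give no support beyond the values. PDGFRA, a growth factor receptor that stands in the lists of primitive endoderm and of mesoderm, was at 5.99 and 3.25 CPM in the libraries labelled CPT2 KO, against 1.73 and 2.38 CPM in those labelled WT (edgeR adjusted p = 0.4). Some other genes also stand in more than 1 list. The part of these lists in the results above was not tested.

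Pluripotency genes were high in every library. All 13 passed, edgeR called 1 higher, ZFP42 (adjusted p = 0.134 and 0.113 without replicate 1 and without replicate 2 labelled CPT2 KO), and 0 lower, the median log2 fold change was 0.15, and the summed level was 11406 and 12636 CPM in the libraries labelled CPT2 KO, against 11133 and 11577 CPM in those labelled WT. None of the 13 differed by 2-fold between replicates 1 and 2 labelled CPT2 KO. Of all genes, 6.86% were higher and 5.44% lower by that much in replicate 1, so 0 of 13 lies near these shares.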

How the data were processed

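Reads of the 4 HUES8 RNA-seq libraries were aligned with HISAT2 2.1.0 and counted with featureCounts 1.6.4 on hg38 (GRCh38), per the submitters' processing notes. The deposited values are raw read counts per gene symbol, with gene lengths, per the file headers. The annotation release and the strand setting were not stated in these sources. From these counts, CPM, TPM (with the deposited lengths) and ratios were computed here. The main test was edgeR 4.0.16 (R 4.3.3) by quasi-likelihood, on 17564 genes kept by filterByExpr, with TMM scaling, robust estimation and a model of group alone. P-values were adjusted by Benjamini-Hochberg across these genes, with a threshold of 0.05. Where a library was left out, the filter was applied again. A positive log2 fold change means higher in the libraries labelled CPT2 KO, and SE is its size over the square root of F. Ratios against 0 counts use a floor of 3 counts per library. DESeq2 1.42.0 and limma-voom (limma 3.58.1) were run beside it, and no column was left unused. The code of the fit was also run on simulated counts. These did not carry the wide gaps between the libraries labelled CPT2 KO, so they do not bear on the calls of the members. Gene positions were looked up by symbol in GENCODE 29 (GRCh38). The set of RefSeq promoter windows used here covered 6 of the 9 genes, and those of 3 are printed. Named beside the 9 genes are the 5 closest in pattern to CER1 and to GATA4, up to 4 genes of each of the 3 pathway lists (other endoderm genes, relatives and partners, gut and liver) with the largest change and no overlap between groups, called genes and neighbours. LHX1, FGF17, PRDM1, PDGFRA and genes named only for a fold, a level or as at 0 were chosen after their values were seen. Of the other endoderm genes, 1 is not reported here by name. Members and lists were chosen with earlier results of these data known.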

Additional observations from a re-analysis of the deposited data

How the results depend on the processing

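No alternative called a member lower. The number called higher, 0 in edgeR, was 1 with no filter on low counts (GATA4), 1 with gene-wise dispersions estimated first (GATA4), 1 without robust estimation (CER1), 2 with DESeq2 (GATA4 and CER1) and 1 to 5 with each library left out in turn. The 2 settings of dispersion and robust estimation were added after seeing the data. Over all genes, 73 were called in edgeR, 124 with no filter, 195 with DESeq2, 30 with limma-voom and 24 to 1132 with a library left out, the highest without WT replicate 2. With the replicate number as a block, 3 members (GATA4, CER1 and FOXA2) were called higher, where 1.33% of tested genes were. In both directions together, 373 genes were called. These 3 members had at most 5 counts in each WT library and entered only through the libraries labelled CPT2 KO, so the calls give no support beyond the values. The labels do not say that the numbers pair the libraries. Across tested genes, the deviations of the replicate 1 libraries from their group means correlated at 0.173. With 2 libraries per group, those of replicate 2 only mirror these, so the block is given here alone. The log2 fold change of HHEX was -0.041 without WT replicate 2 and 0.67 without WT replicate 1. Those of GATA4 (2.93 to 4.56), FOXA2 (4.60 to 6.50), CER1 (7.06 to 13.36, the upper value with WT at 0 counts and so no bound) and CXCR4 kept their sign in every alternative that tested them. With a prior count of 0.5, 3 of the 5 genes closest to CER1 and 3 of those closest to GATA4 were again found. The cause of these changes was not tested. Depth limits SOX17, GATA6, FOXA1 and HNF4A, whose counts in at least 1 library labelled CPT2 KO were at most 7.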
